A study of Mus musculus with 21 samples.

Results

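The 9 genes described here belong to cyclic AMP (cAMP) signalling in medium spiny neurons, the principal projection neurons of the striatum. They encode proteins that make or remove cAMP, control these steps or act downstream of it: Rgs9, Gng7, Adcy5, Gnal, Ppp1r1b, Pde10a, Pde1b, Ptpn5 and Arpp21. They were found by symbol in both count tables, 9 of 21872 symbols, and 9 of 9 passed the filter on low counts at both ages. The list was drawn up with the 7-week difference between treated and control brain known. That difference is therefore given below as a description without a test. The embryonic difference, on which the choice rests less, is tested, although earlier results of these data were known when the genes were chosen.

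RNA was sequenced from mouse brain in 4 groups. Controls received water; treated mice received trientine (TETA), a copper-chelating drug, and are labelled copper-deficient. Embryos of day 18.5 (E18.5) gave 6 libraries of each kind, and mice 7 weeks after birth gave 5 control libraries and 4 from TETA. The labels give brain as the tissue throughout and a protocol that names the prefrontal cortex of male mice at 7 weeks; they do not state the region or sex at E18.5, the strain, the dose or the animal behind each library. The p-values, standard errors and confidence intervals therefore measure only the spread between these libraries, which may be technical. The fits treat the libraries as independent, so the intervals are too narrow if some libraries share an animal. Total counts ran from 14678265 to 24308555 per E18.5 library and from 17838051 to 24035857 per 7-week library, and each of the 9 genes had 337 to 11158 counts in each library. Levels are CPM, the count relative to the library total after TMM scaling, and fold changes are TETA over control on the log2 scale with their standard error (SE). A gene is said to be called where its Benjamini-Hochberg adjusted p, over all genes of that age, was under 0.05 by the quasi-likelihood test of edgeR.

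In medium spiny neurons the dopamine receptor Drd1 and the adenosine receptor Adora2a act through an olfactory-type stimulatory G protein, Golf. It takes the place of the Gs used by most cells. Golf drives adenylyl cyclase to make cAMP, cAMP activates protein kinase A (PKA), and PKA turns the phosphoprotein DARPP-32 into an inhibitor of protein phosphatase 1. Phosphodiesterases break cAMP down again, and RGS proteins shorten G protein signals.

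All 9 genes are protein-coding in the GENCODE vM21 annotation of GRCm38, the build (mm10) named in the submitters' processing notes. Rgs9 lies at chr11:109225355-109298129, Gng7 at chr10:80948624-81014945, Adcy5 at chr16:35154877-35305738, Ppp1r1b at chr11:98348404-98357796, Pde10a at chr17:8525372-8986648, Pde1b at chr15:103503034-103530052, Ptpn5 at chr7:47077795-47133684 and Arpp21 at chr9:112065091-112235938. Rgs9, Gng7, Ptpn5 and Arpp21 are on the minus strand and the others on the plus strand. Only Rgs9 and Ppp1r1b share a chromosome.

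RefSeq promoters of GRCm38.p6 matched 7 of the 9 genes, with 20 start sites in all. One window each of 3 genes is shown because these genes mark the ends of the 7-week range: Rgs9 and Gng7 were among those with the largest relative fall and Ptpn5 had the smallest. Each is the 250 bases before a start site (1 of 2 for Gng7 and Ptpn5), 5′ to 3′ on the gene's strand, with matches to the motifs below in capitals.
Rgs9, chr11:109298182-109298431: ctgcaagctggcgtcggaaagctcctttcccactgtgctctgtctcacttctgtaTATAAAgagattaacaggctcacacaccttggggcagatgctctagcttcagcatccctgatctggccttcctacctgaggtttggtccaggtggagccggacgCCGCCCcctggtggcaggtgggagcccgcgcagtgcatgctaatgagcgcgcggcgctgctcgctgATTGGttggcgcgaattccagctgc
Gng7, chr10:81014926-81015175: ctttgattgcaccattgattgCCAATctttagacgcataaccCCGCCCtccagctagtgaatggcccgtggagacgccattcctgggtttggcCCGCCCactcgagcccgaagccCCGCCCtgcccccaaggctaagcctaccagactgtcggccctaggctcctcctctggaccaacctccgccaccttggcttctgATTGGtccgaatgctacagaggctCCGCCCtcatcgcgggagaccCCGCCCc
Ptpn5, chr7:47132599-47132848: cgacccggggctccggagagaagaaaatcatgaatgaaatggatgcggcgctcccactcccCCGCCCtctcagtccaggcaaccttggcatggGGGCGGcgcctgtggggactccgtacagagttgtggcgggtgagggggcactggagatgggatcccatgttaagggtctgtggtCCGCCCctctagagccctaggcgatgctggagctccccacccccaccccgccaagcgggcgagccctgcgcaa
Motifs were searched on both strands. The TATA box was searched as TATAAA and the CCAAT box by the letters of its name. The GC box, a site for Sp-family factors, was searched as GGGCGG. The cAMP response element, the site bound by CREB, was searched as TGACGTCA, and its core, which lies inside the full element, as TGACG. The Rgs9 sequence held a TATA box letter match that begins 195 bases before the start site, a GC box at -91 and a CCAAT box at -25. Gng7 held 5 GC boxes and 2 CCAAT boxes in the printed window, and Ptpn5 held 3 GC boxes. Over all 7 genes the full cAMP response element matched 0 of the 20 windows, against 1.55% of 32851 windows of that length in RefSeq, and the core matched 3 windows, of Arpp21 and Gng7, against 17.8%. The GC box matched 6 of the 20 windows, 1 each of 6 genes, against 32.7% of all windows, and the TATA box matched the Rgs9 window alone, against 12.4%. A match is a run of letters and was not tested as a binding site.

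At 7 weeks every one of the 9 genes was lower in TETA than in control, by 12.4% to 61.9% of the control mean, and the libraries of the groups did not overlap for any of them. The size of the difference was far from even. Rgs9, Ppp1r1b, Gng7 and Pde10a were lower by 48.3% to 61.9%, Adcy5 and Pde1b by 37.2% and 36.6%, and Arpp21, Gnal and Ptpn5 by 12.4% to 15.5%. The median log2 fold change was -0.67 over the 9 genes and 0.00019 over all 14240 genes tested. Of all genes tested, 4.91% had groups that did not overlap with TETA lower, against 9 of 9 here; since the genes were picked on this contrast, nothing is read from that count.

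**Figure D1:**
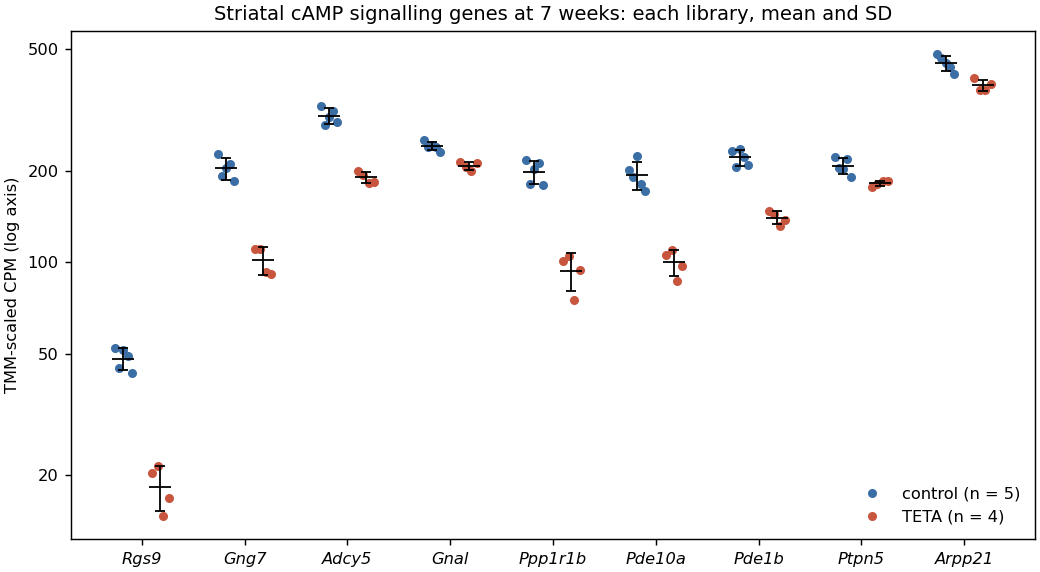
TMM-scaled CPM (log axis) of the 9 genes at 7 weeks, 1 point per library, with 5 control libraries in blue and 4 TETA libraries in red; black bars are the mean and SD. The TETA points lie below the control points for each gene, furthest for Rgs9 (18.4 against 48.2 CPM on average) and least for Ptpn5 (182 against 207 CPM).

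Rgs9 encodes the RGS protein that speeds GTP hydrolysis after dopamine and opioid receptor signals in striatal neurons. Its level in the control libraries was 52.5, 44.8, 51.4, 49.1 and 43.3 CPM, and in the TETA libraries 20.4, 21.5, 14.7 and 16.9 CPM. All 4 TETA libraries lay far below all 5 controls, and the log2 fold change of -1.40 (SE 0.085) was the most negative of the 9. The control mean was 48.2 ± 4.05 CPM (SD, n = 5) and the TETA mean 18.4 ± 3.12 CPM (SD, n = 4).

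Golf is represented by 2 of its subunits. Gnal encodes the α subunit, and Gng7 the γ subunit that the striatal α subunit depends on for its assembly. Gng7 measured 228, 192, 204, 209.7 and 185 CPM in control and 111, 111, 93.1 and 91.3 CPM in TETA. With a log2 fold change of -1.01 (SE 0.062) it had no shared value between the groups, and TETA replicates 3 and 4 lay below replicates 1 and 2. Gnal measured 251, 239, 243, 239 and 231 CPM in control and 214, 205, 199.5 and 212 CPM in TETA, so its log2 fold change was only -0.21 (SE 0.033). The 2 subunits therefore did not stay in proportion: the ratio of Gng7 to Gnal CPM within a library was 0.801 to 0.905 in control and 0.431 to 0.539 in TETA.

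Adcy5 encodes adenylyl cyclase 5, the main cAMP-forming enzyme of the striatum. Its values were 327, 283.5, 299.8, 314 and 289 CPM among controls and 199.9, 194, 182 and 184 CPM in TETA. The gap of 112.8 CPM between the means was the largest of the 9 genes, although its relative fall, a log2 fold change of -0.67 (SE 0.042), sat in the middle of the set.

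Ppp1r1b encodes DARPP-32. The 5 control libraries gave 217, 181, 202, 212 and 180.1 CPM and the 4 TETA libraries 101, 105, 75.0 and 94.4 CPM. TETA replicate 3 was the lowest library, and the log2 fold change was -1.08 (SE 0.075). Arpp21 encodes ARPP-21, another PKA substrate rich in these neurons and also found in the cortex. It was the most abundant of the 9 by CPM, at 482, 468, 452, 438 and 417 CPM in control and 403, 368, 369 and 385 CPM in TETA. Its log2 fold change was -0.24 (SE 0.039), a fall of 69.8 CPM that was only 15.5% of the control level. The ratio of Ppp1r1b to Arpp21 CPM was 0.386 to 0.483 in control libraries and 0.203 to 0.285 in TETA libraries.

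The phosphodiesterases Pde10a, which degrades cAMP and cGMP and is concentrated in medium spiny neurons, and Pde1b, which is switched on by calcium and calmodulin, were both lower. Pde10a was at 201, 190.4, 224, 181 and 171 CPM in control and 106, 109.9, 86.9 and 97.5 CPM in TETA (log2 fold change -0.95, SE 0.068). Pde1b was at 232, 205, 236, 222 and 209 CPM in control and 148, 144, 132 and 138 CPM in TETA (log2 fold change -0.66, SE 0.044). Pde10a lost more of its level than Pde1b, and the ratio of Pde10a to Pde1b went from 0.875 ± 0.062 (SD, n = 5) among controls to 0.712 ± 0.043 (SD, n = 4) under TETA, with no shared value.

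Ptpn5 encodes STEP, a tyrosine phosphatase of striatum and cortex that is inhibited by PKA and acts on glutamate receptor subunits, among others. Control libraries held 221, 204, 203, 218 and 191 CPM and TETA libraries 176, 181, 185 and 184 CPM. It showed the smallest change, with a log2 fold change of -0.19 (SE 0.040), and its lowest control library stood close above its highest TETA library. Against it, Rgs9 ran at 0.220 to 0.254 of the Ptpn5 CPM in control libraries and at 0.0795 to 0.119 in TETA libraries.

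Arpp21 is also the host of a microRNA gene, Mir128-2, which lies within it on the same strand and outside its annotated exons. The mature product, whose seed (bases 2 to 8) is in capitals, is given to identify it: mmu-miR-128-3p, chr9:112118644-112118664, from RefSeq for GRCm38.p6.
mmu-miR-128-3p: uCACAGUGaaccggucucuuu
The count tables have no row for it, so its level was not analysed here.

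Compared per length, as CPM per kilobase of annotated exon, the order of levels in 7-week control was Ppp1r1b (67.8 ± 5.90), Gng7 (53.8 ± 4.37), Adcy5 (42.1 ± 2.49), Pde1b (41.0 ± 2.52), Ptpn5 (35.8 ± 2.15), Arpp21 (25.9 ± 1.46), Gnal (21.5 ± 0.667), Pde10a (15.1 ± 1.57) and Rgs9 (7.55 ± 0.634; SD, n = 5). Adcy5 and Pde1b differed by less than their spread. In TETA the first 5 drew together: Ppp1r1b was at 32.05 ± 4.53, Ptpn5 at 31.3 ± 0.686, Gng7 at 26.8 ± 2.82, Adcy5 at 26.4 ± 1.17 and Pde1b at 26.0 ± 1.30 CPM per kilobase (SD, n = 4). Ppp1r1b and Ptpn5 then differed by less than their spread, as did Gng7, Adcy5 and Pde1b. The exon length is that of all annotated transcripts joined, and the transcripts used in these samples may be shorter.

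Among control libraries at 7 weeks, replicate 1 was the highest for 7 of the 9 genes and replicate 5 the lowest for 7. Among TETA libraries, replicate 3 was the lowest for 6, and replicates 1 and 2 were the highest for 4 each. The genes whose levels within the groups ran most like the mean of the 9 were Penk, Drd1, Casq2, Drd2 and Rasgrp2, with Pearson r from 0.920 to 0.984 over 9 libraries after removal of the group means, out of 14231 other genes. This r only ranks the genes. Penk, the enkephalin precursor, and the dopamine receptors Drd1 and Drd2 are medium spiny neuron genes. Casq2 had a log2 fold change of 0.33, opposite in sign to the other 4, which lay between -2.34 and -0.85. By the same measure Ptpn5 and Arpp21 followed the other 8 genes least, at r of 0.303 and 0.516, and Rgs9 most, at 0.921.

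Markers of medium spiny neurons moved with the 9 genes at 7 weeks. Of 20 such markers, none of them among the 9, 17 were called lower and 0 higher, with a median log2 fold change of -1.01. Of all genes, 9.96% were called (4.28% lower, 5.67% higher). This list and those below were drawn up with earlier results of these data known, so their counts are descriptions. Among the markers with the smallest p were Rxrg, Adora2a, Penk and Drd2, at log2 fold changes of -1.53, -2.34, -1.58 and -2.34. Their summed level ran from 796 to 959 CPM in control and from 500 to 599 CPM in TETA. Isl1 and Six3, transcription factors of the striatal lineage, were each at 0 in 1 TETA library. Markers of cortical excitatory neurons, shared by the cortex at large, overlapped between groups, with a summed level of 4279 to 4593 CPM in control and 4180 to 4587 CPM in TETA; Slc17a7, the vesicular glutamate transporter of these cells, was at 1669 ± 70.6 and 1667 ± 32.3 CPM (SD, n = 5 and 4). Of 16 cortical markers 3 were called lower (Syt6, Emx1 and Rorb) and 1 higher (Neurod2), and 1 in all was called without control replicate 2. Foxp2 is in both marker lists. The part of a different share of striatal tissue in the lower levels of the 9 genes was not tested, and in bulk RNA fewer cells of a type and less RNA per cell cannot be told apart.

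The receptors that feed this pathway divided sharply. Of 10 receptors listed, 5 of which are also in the marker list above, 6 were called lower and 0 higher, and the median log2 fold change was -0.93. Adora2a, the adenosine receptor coupled to Golf in striatopallidal neurons, averaged 30.8 ± 4.51 CPM among controls against 6.13 ± 1.96 CPM with TETA (SD, n = 5 and 4). Drd1, the dopamine receptor coupled to Golf in striatonigral neurons, averaged 30.2 ± 3.89 and 14.6 ± 3.32 CPM, and Drd2, which inhibits adenylyl cyclase, was at 19.5 ± 3.81 and 3.89 ± 1.72 CPM. The orphan receptor Gpr6 was also called lower, at a log2 fold change of -2.04 (SE 0.21). Chrm4, a muscarinic receptor that inhibits cAMP formation, gave 25.8 ± 2.76 and 24.8 ± 1.64 CPM (log2 fold change -0.06, SE 0.071), and the opioid receptors Oprm1 and Oprd1 and the serotonin receptor Htr6 did not pass.

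The lists of the rest of the cAMP pathway, which most brain cells use, had medians near 0. Their counts of calls stand beside 4.28% of all genes called lower and 5.67% called higher. Each of these lists held a larger share of lower calls than that, from few genes, which was not tested. Of 26 G protein and RGS partners, 4 were called lower and 1 higher, with a list median of -0.02. The G protein β subunit Gnb4 stood at -0.32 (SE 0.053) on the log2 scale and Gpr158, a receptor that binds RGS proteins at the membrane, at -0.19 (SE 0.032). Among the RGS genes Rgs4 and Rgs8 had log2 fold changes of -0.22 and -0.12 and Rgs11, which was called higher, one of 0.33. Without TETA replicate 1 the list held 3 calls.

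Of 10 genes in the list of other adenylyl cyclases and cyclase-associated proteins, Adcy6 was higher (log2 fold change 0.20, SE 0.048) and Cap1 was lower (-0.12, SE 0.029), with a list median of 0.03. The call of Adcy6 was lost without TETA replicate 3. Among 17 other phosphodiesterases, 3 were lower and 1 higher, with a list median of -0.04. Pde7b and Pde8b, both cAMP-specific, were at log2 fold changes of -0.37 (SE 0.066) and -0.23 (SE 0.045), Pde4b was at -0.13 and Pde7a, which was higher, at 0.19. Without TETA replicate 3 the list held 2 calls.

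Of 23 PKA subunits, anchors and CREB factors 3 were lower and 0 higher, with a list median of 0.01. They were the anchoring proteins Akap9 (log2 fold change -0.26, SE 0.042) and Akap11 (-0.10, SE 0.032) and the regulatory subunit Prkar2b (-0.13, SE 0.037). With library totals in place of TMM factors the list held 1 call. Of 22 phosphatases and kinases around DARPP-32, 5 were lower and 0 higher, with a list median of -0.06: Ppp1r9a (neurabin), Ppp1r1a (the phosphatase inhibitor related to DARPP-32), Arpp19, Ppp1ca (a catalytic subunit of protein phosphatase 1) and Ppp3ca (the calcineurin catalytic subunit), with log2 fold changes from -0.19 to -0.10. The summed level of this list did not overlap between groups, at 7146 to 7435 CPM in control and 6759 to 7103 CPM in TETA. Without TETA replicate 3 there were 2 calls in this list. Of the calls named from these lists, those of Akap11 and Rgs8 were each lost under 9 of the 15 alternatives run, that of Ppp3ca under 8, Pde4b under 7, Prkar2b under 6, Pde7a under 3 and Rgs11 under 2, and those of Adcy6, Arpp19 and Ppp1ca under 1 each. In all, 1418 of 14240 genes were called, and 927 without TETA replicate 3.

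**Figure D2:**
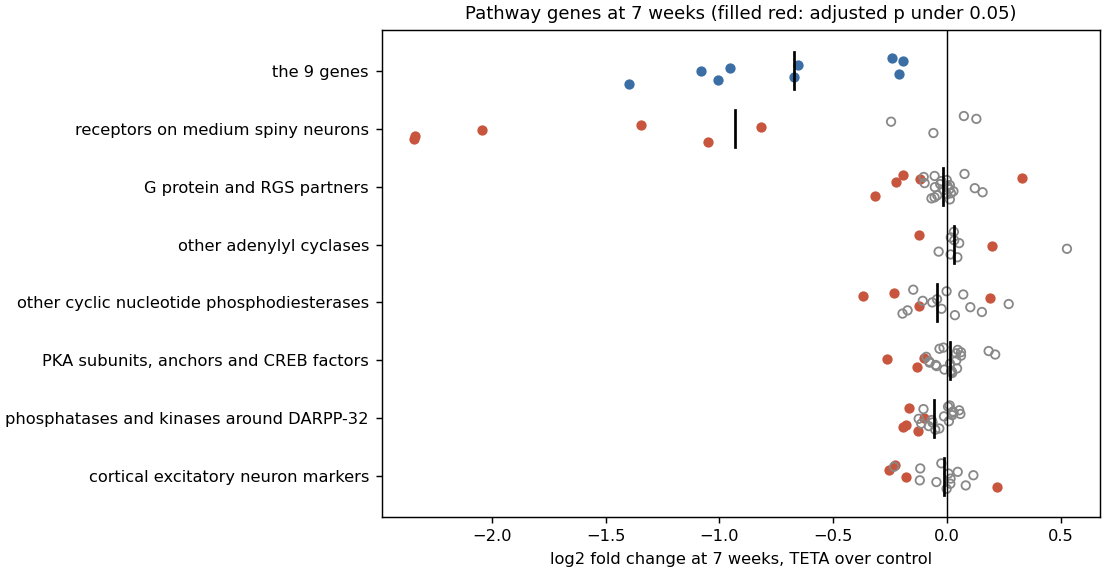
Log2 fold change (TETA over control) at 7 weeks of the 9 genes in blue, all drawn filled and not tested, and of 7 lists: the receptors, 5 lists of the rest of the pathway and the cortical excitatory markers, 1 point per gene. In these lists filled red points were called (adjusted p under 0.05), and black bars are medians: -0.67 for the 9 genes, -0.93 for the receptors and -0.06 to 0.03 for the other 6 lists drawn; the medium spiny neuron markers, with a median of -1.01, and the other cell type lists are not drawn.

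At E18.5 all 9 genes were well expressed and 0 of the 9 were called in edgeR. The same test called 0% of all 13794 genes, while DESeq2 called 10 and limma voom with quality weights 8, none of them among the 9. An unadjusted p under 0.05 was found for 1 of the 9 genes, Arpp21, and for 660 genes (4.78%) in all. The groups overlapped for each of the 9, where 0.312% of all genes had groups that did not. The median log2 fold change was -0.03 over the 9 genes and -0.0027 over all genes.

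For 8 of the 9 genes the 95% confidence interval of the log2 fold change at E18.5 held 0; the difference between ages was not tested. Rgs9 ran from 22.1 through a median of 23.2 to 27.1 CPM in control and from 19.6 through 23.0 to 26.6 CPM in TETA, with an interval from -0.20 to 0.10. Gng7 ran from 114 through 123 to 127 CPM in control and from 113 through 123 to 130.4 CPM in TETA, with an interval from -0.09 to 0.08. For neither gene did either group sit to one side of the other. Ppp1r1b ran from 56.7 through 59.3 to 63.1 CPM in control and from 53.7 through 57.4 to 62.1 CPM in TETA, with an interval from -0.13 to 0.05. Pde10a ran from 175 through 195 to 215 CPM and from 184 through 192 to 209 CPM, with an interval from -0.13 to 0.07. These 4 genes, the most strongly lower at 7 weeks, had no interval that reached below -0.20 in the embryo. Adcy5 ran from 115 through 120.1 to 126 CPM in control and from 105 through 120.4 to 125 CPM in TETA. Gnal, the most abundant of the 9 by CPM at this age, ran from 340.1 through 354 to 374 CPM and from 326 through 345 to 365 CPM. For Gnal and Adcy5 the TETA group reached lower than the control group, with most of both ranges shared. Pde1b ran from 76.5 through 79.6 to 87.1 CPM and from 78.2 through 81.3 to 84.4 CPM, and it alone had a fold change above 0 (log2 0.02, SE 0.037). Ptpn5 ran from 169 through 182 to 197 CPM and from 164 through 178 to 189 CPM. The lower interval bounds of these other 4 genes lay between -0.12 and -0.06, and the adjusted p of each was 0.996 by edgeR. The proportion of the Golf subunits was also alike, with a Gng7 to Gnal ratio of 0.344 ± 0.015 among controls and 0.353 ± 0.016 under TETA (SD, n = 6 each).

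**Figure D3:**
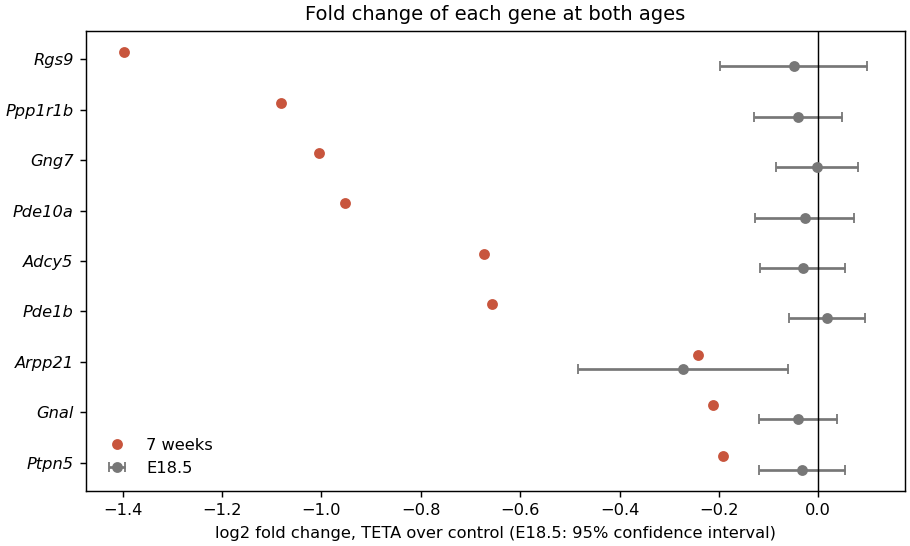
Log2 fold change of TETA over control, at E18.5 in grey with its 95% confidence interval from the edgeR fit and at 7 weeks in red as points only, since the genes were chosen on that contrast; genes are ordered by the 7-week value. The grey intervals of 8 genes span 0, and that of Arpp21 runs from -0.48 to -0.06.

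Arpp21 was the exception at E18.5. Control replicates 1-1 and 1-2 held 195 and 220.1 CPM, and the other 10 libraries, control and TETA alike, held 124 to 142 CPM. The control mean was thus 159 ± 38.6 CPM and the TETA mean 131 ± 6.95 CPM (SD, n = 6 and 6). Its log2 fold change was -0.27 (SE 0.10, adjusted p = 0.893 by edgeR). Without these 2 control libraries, left out after seeing the data, the log2 fold change was -0.04 (SE 0.043). Replicates 1-1 and 1-2 were also the control libraries with the lowest total counts, at 15131081 and 14678265. On the log2(CPM + 1) scale Arpp21 had the widest gap between these 2 libraries and the other 10 of all 13794 genes tested, at 0.45, followed by Has2 at 0.26 and Arrb1 at 0.25, which were named after their values were seen. For the other 8 genes these 2 libraries did not both lie above the other 10. The part of whatever sets these libraries apart was not tested.

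**Figure D4:**
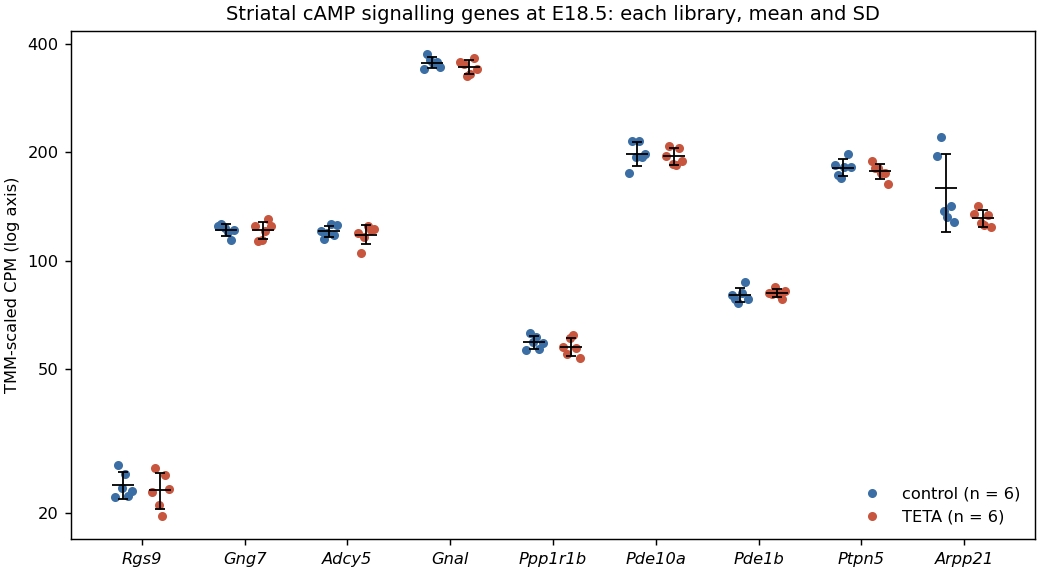
TMM-scaled CPM (log axis) of the 9 genes at E18.5, 1 point per library, with 6 control libraries in blue and 6 TETA libraries in red; black bars are the mean and SD. The groups overlap for each gene, and the 2 high control points of Arpp21 (195 and 220.1 CPM) are replicates 1-1 and 1-2.

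The pathway lists held no call at E18.5 either: 0 genes of the 16 lists were called by edgeR, and Kdr was called by DESeq2 and by limma voom. Among the receptors Adora2a had the smallest p, with 26.0 ± 0.788 CPM among controls against 23.7 ± 1.01 CPM with TETA (SD, n = 6 and 6) and an adjusted p of 0.874 by edgeR. Drd1 and Drd2 were at log2 fold changes of 0.02 (SE 0.059) and -0.01 (SE 0.058). Medium spiny neuron markers summed to 1532 to 1737 CPM in control and 1555 to 1798 CPM in TETA. Endothelial markers did not overlap, at 147 to 166 CPM in control and 167 to 179.9 CPM in TETA; their part in the values of the 9 genes was not tested. Among controls, replicate 1-2 was the highest for 6 of the 9 genes and replicate 1-1 the lowest for 4. The genes most like their mean within the groups were Intu, Frem2, Trim2, Mcph1 and St8sia3, with r from 0.913 to 0.936 over 12 libraries, and none of these is a medium spiny neuron marker of the list used; Adcy5, Pde1b and Ptpn5 ran against the mean of the other 8, at r of -0.483, -0.361 and -0.208.

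Side by side, the control levels of the 2 ages showed which of the 9 genes stood higher in the older samples. Age, table and possibly region differ together here, so the values carry no test. Ppp1r1b had the highest ratio of the 9, at 3.34, with 59.4 CPM in the embryo and 198 CPM later. Arpp21, Pde1b, Adcy5, Rgs9 and Gng7 were at 2.84, 2.75, 2.51, 2.02 and 1.67 times their embryonic level. Gnal went the other way, from 355 to 241 CPM, a ratio of 0.678, and the libraries of Pde10a and Ptpn5 overlapped between ages. In TETA at 7 weeks Pde10a, Gnal, Rgs9 and Gng7 stood below the embryonic control level, at 0.504, 0.586, 0.768 and 0.833 times it, and Ptpn5 was at 1.00 times, whereas Ppp1r1b, Adcy5, Pde1b and Arpp21 stood above it, at 1.58, 1.57, 1.74 and 2.40 times.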

How the data were processed

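RNA from mouse brain (stranded poly(A) libraries, per the labels' protocols) was sequenced in 21 libraries. The authors deposited whole-number counts per gene symbol, 1 table per age, per the file headers; STAR 2.7.1a, featureCounts 2.0.1 and mm10 are named in the submitters' processing notes. The annotation and the strand setting of the counting are not given in the sources used here. Reads shared with overlapping genes are therefore of unknown handling. Among those genes are an antisense gene at Ptpn5 and protein-coding Chmp1b and Mppe1 at Gnal.

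At E18.5, 1940 genes at 0 in control replicate 1-1 held multiples of 11 elsewhere and were divided by 11; 0 of the 9 genes were among them. Each age was fitted alone over the whole table: filterByExpr (minimum count 10), TMM, edgeR's quasi-likelihood test and Benjamini-Hochberg adjustment, at a threshold of 0.05 (R 4.3.3 with DESeq2 1.42.0, edgeR 4.0.16 and limma 3.58.1; numpy 2.4.6 and pandas 2.3.3 in Python 3.11.15). The SE is the log2 fold change divided by the square root of F. The test was checked on simulated counts.

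The 9 genes and all lists were chosen with earlier results of these data known. Named were the 9 genes and, per list, up to 5 genes past the threshold by smallest p, or up to 2 if none passed, markers for their level, and the 5 genes most like the mean of the 9 at each age (Pearson r of log2(CPM + 1), group means removed). Some items that this rule names are not reported here.

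Alternatives were no filter, a mean count of 50, DESeq2, no TMM factors, limma voom with quality weights, leaving out each library, a replicate block, and at E18.5 the counts as deposited, libraries summed by first number, a block of the first number, and leaving out 2 controls, which was added after seeing the data. The 16 lists also covered markers of interneurons, glia, vessels, choroid plexus, olfactory bulb and thalamus.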

Additional observations from a re-analysis of the deposited data

How the results depend on the processing

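At 7 weeks the 9 log2 fold changes kept their sign in all 135 values under the alternatives and moved by less than the spread between replicates; their median ran from -0.70 to -0.64 on leaving out each library. The count of genes past the threshold was 1418 and ran from 927 (without TETA replicate 3) to 1392 with a library left out. Without TMM factors 67.6% of the calls were higher in TETA, against 57.0%. Of 49 called genes of the lists, 27 passed under every alternative run, 19 lost the call under at least 1, and 3 passed wherever tested but were removed by the filter on a mean count of 50 (Isl1, Ido1 and Clic6). At E18.5, 0 of the 9 genes passed under any of the 22 alternatives run, with a smallest adjusted p of 0.484 (Arpp21, edgeR with a replicate block), and 9 of 198 values changed sign, 7 of them for Gng7. Over all genes DESeq2 called 10 (583 at an unadjusted p under 0.05, against 660 in the edgeR test), limma voom with quality weights 8 and summed libraries 2; leaving out a library gave 0 to 7 genes, with 7 without TETA replicate 1-2 and 3 without control replicate 3-2. Of the list genes 1, the endothelial Kdr, was called by DESeq2, by limma voom and without TETA replicate 1-2 (0 to 1 over the libraries left out). The causes were not tested. The labels' replicate numbers are shared by control and TETA. Deviations of same-numbered libraries correlated at -0.275 to 0.284 at E18.5 and -0.0692 to -0.0295 at 7 weeks. These values show no steady pairing, but they are too few to exclude a shared source. Whether libraries of 1 group with the same first number belong together was not tested. With a replicate block 1063 genes were called at 7 weeks and 0 at E18.5 (719 at an unadjusted p under 0.05).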

Other observations

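Markers of other cell types at 7 weeks gave the following counts, where 4.28% of all genes were called lower and 5.67% higher. Of 10 interneuron markers 3 were called lower and 0 higher: Slc32a1, the vesicular GABA transporter, at a log2 fold change of -0.31 (SE 0.044), Gad2, a GABA-synthesizing enzyme, at -0.16 (SE 0.033), and Npy at -0.19 (SE 0.046). All GABA neurons, medium spiny neurons included, use Slc32a1 and Gad2. The summed level of that list was 1101 to 1134 CPM in control and 1027 to 1082 CPM in TETA. Of 8 markers each, astrocytes had 1 call (Aldh1l1, lower), endothelial cells 1 (Flt1, higher) and microglia 0, and of 10 oligodendrocyte markers 1 was lower (Pdgfra). The calls of Pdgfra and Aldh1l1 were lost under 7 and 3 of 15 alternatives, among them leaving out TETA replicate 3 or 4, and that of Npy without TETA replicate 1. Choroid plexus had 1 of 6 tested (Clic6, lower at -1.60, SE 0.32, and not tested under the filter on a mean count of 50), and olfactory and thalamic neurons had 0 of 8; for these 2 lists the summed levels overlapped between groups.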
